A study of Mus musculus with 31 samples.

Results

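The genes described here are those of the mouse Fc receptors of blood and tumor monocytes: Fcgr1, Fcgr3 and Fcgr4, which encode activating receptors for immunoglobulin G (IgG), Fcgr2b, which encodes the inhibitory IgG receptor, Fcer1g, which encodes the signalling chain of the activating receptors, and Fcgrt, which encodes the neonatal Fc receptor. They were chosen by symbol, as 6 of the 24411 entries of the count table, and all 6 were among the 12337 genes that passed the filter on low counts. The data are RNA-seq libraries, 9 in all, of C57BL/6J mouse monocytes sorted on CD11b+, Ly6G-, Ly6C-high and MHC class II-. There were 3 libraries from blood of healthy mice (healthy blood), 3 from blood of mice with subcutaneous tumors of Lewis lung carcinoma, a transplantable mouse lung cancer line (LLC blood), and 3 from the LLC tumors themselves (LLC tumor). The labels of the samples name blood, but the count table heads both blood groups BM, which was read as blood monocyte, and the table itself does not settle that reading. No genetic change or drug treatment is named for any group, and the mice's age is not given in the sources used here. Nothing states that the libraries of a group came from separate mice, so p-values measure only the spread between these libraries.

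Fc receptors let a myeloid cell sense antibody-coated targets. When IgG cross-links an activating receptor, the paired Fcer1g chain is phosphorylated on its ITAM, an activating tyrosine motif, by Src-family kinases and recruits the kinase Syk, which drives phagocytosis and cytokine release. Fcgr2b carries an ITIM, an inhibitory tyrosine motif, that recruits the lipid phosphatase SHIP-1 (gene Inpp5d) and raises the threshold of the activating receptors on the same cell. The neonatal receptor works elsewhere: paired with B2m in endosomes, it returns IgG and albumin to the cell surface.

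Library totals were 10457492 to 20706412 estimated counts. LLC tumor 1 stood apart from the other tumor libraries, with a TMM scaling factor of 0.798 against 0.968 and 1.00, so the members' results and the list counts are also given without it. As to the sorted identity, the 9 Ly6C-high monocyte markers were present in every group. They summed to 33306 to 37249 CPM in healthy blood, 24478 to 27684 CPM in LLC blood and 16106 to 23950 CPM in LLC tumor. In both blood groups most of that sum was Lyz2. Ly6c2 was at 1522 to 1673 CPM in healthy blood, 1031 to 1177 CPM in LLC blood and 272.9 to 592.2 CPM in tumor. Itgam was at 1272 to 1431 CPM in LLC blood and 3302 to 4663 CPM in tumor. In the tumor, 6 of the 9 markers were called lower than in LLC blood and 2 higher, against 31.7% and 29.6% of all tested genes. Levels below are normalized CPM, the usual depth-scaled counts with the library total multiplied by its TMM factor, and calls are from edgeR's quasi-likelihood test at an adjusted p under 0.05 over all tested genes (Benjamini-Hochberg).

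In the tumor, all 4 IgG receptor genes rose, and the inhibitory receptor had the highest fold change. Against LLC blood, Fcgr2b was 4.96-fold higher, while the activating Fcgr1, Fcgr3 and Fcgr4 were 2.88-fold, 2.64-fold and 2.50-fold higher. In such bulk samples, more cells of a type and more RNA per cell cannot be told apart. The Fcer1g chain and Fcgrt were not called in that comparison. This made 4 of 6 members higher and 0 lower, where 29.6% of all tested genes were called higher, 31.7% lower and 61.3% in either direction. The members' median log2 fold change was 1.36, against -0.03 over all tested genes. In blood, 1 of 6 members was called, Fcgrt, which was lower in tumor-bearing mice, where 9.61% of all tested genes were called lower and 23.6% in either direction. None was called higher, where 14% of tested genes were. In the same edgeR fit Fcer1g had an unadjusted p of 0.0451. The blood count became 3 of 6, with Fcer1g and Fcgr3 lower too, without LLC tumor 1 and in the fit of the 6 blood libraries alone. Over all genes, the calls in blood moved from 2917 to 5064 when LLC tumor 1 was left out, and to 1494 when LLC blood 2 was.

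**Figure D1:**
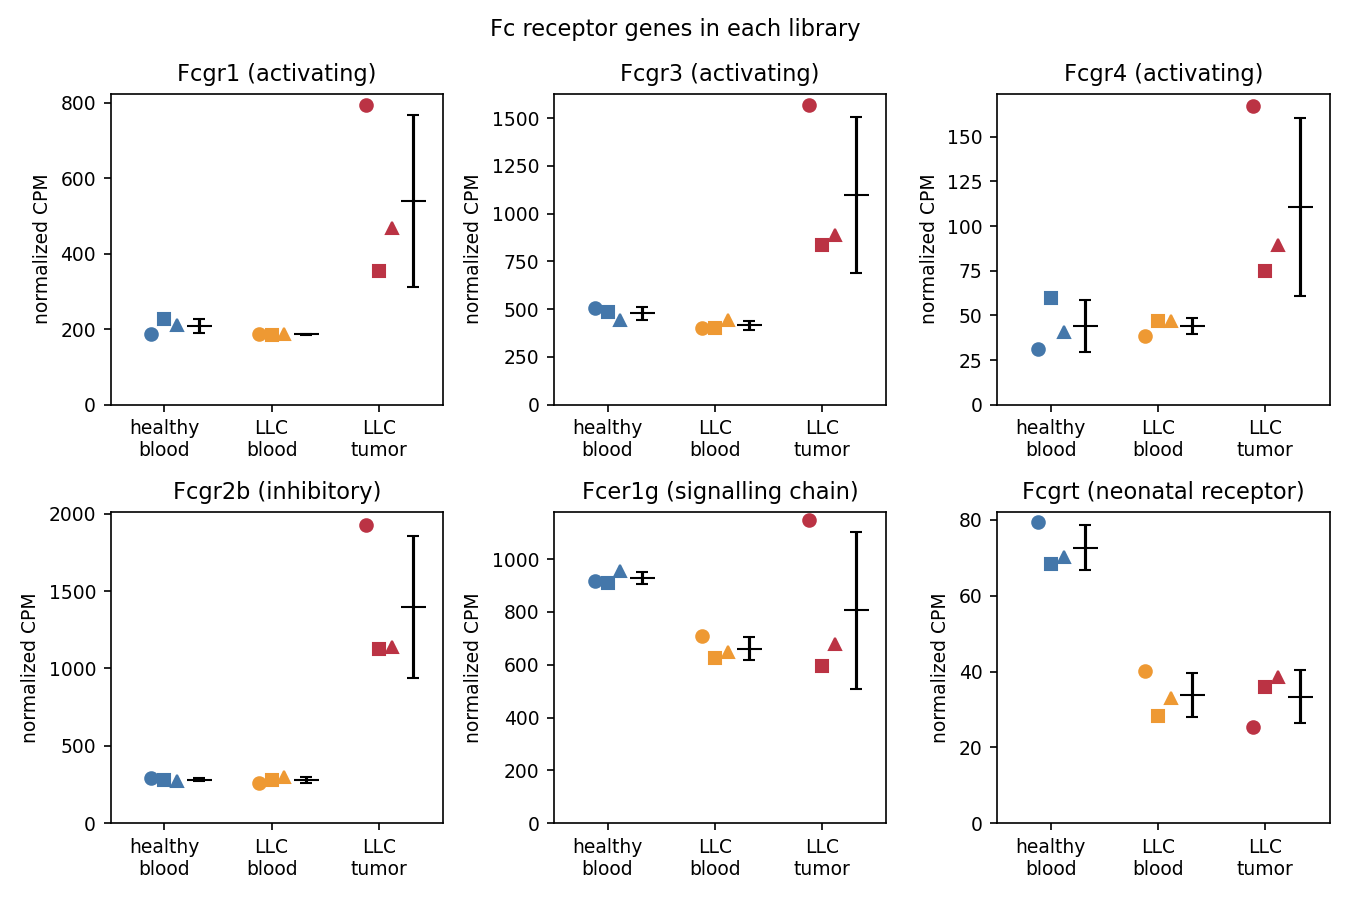
Normalized CPM (vertical axes, from 0) of each gene in the 3 groups. Circles, squares and triangles are replicates 1, 2 and 3, and the bar gives the mean with its SD over 3 libraries. The 3 tumor libraries lie above all 6 blood libraries for Fcgr1, Fcgr3, Fcgr4 and Fcgr2b, and LLC tumor 1 is the highest of them, while for Fcgrt both tumor-bearing groups lie below healthy blood.

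Fcgr1 encodes the high-affinity IgG receptor CD64, which binds single IgG molecules. Its counts were 2719, 3817 and 3564 in healthy blood 1 to 3. LLC blood 1 to 3 had 2071, 2864 and 4039, and LLC tumor 1 to 3 had 7019, 3987 and 5250. In normalized CPM healthy blood stood at 188.2, 226.4 and 211.6, LLC blood at 188.4, 185.8 and 187.2, and the tumor at 794.3, 354.1 and 469.2. The tumor libraries did not overlap with either blood group, and the blood groups overlapped with each other. From LLC blood to tumor the log2 fold change was 1.53 ± 0.25 SE (adjusted p 0.000517), and relative to healthy blood it was 1.37 ± 0.25 SE (adjusted p 0.000877), comparisons that share the tumor libraries. Between LLC blood and healthy blood it was -0.16 with a 95% confidence interval of -0.70 to 0.39.

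Fcgr3 encodes CD16, a low-affinity receptor for immune complexes. It was at 507.2, 482.8 and 443.7 CPM in healthy blood 1 to 3, at 400.5, 403.4 and 441.5 CPM in LLC blood and at 1570, 833.5 and 888.7 CPM in LLC tumor. All tumor libraries were higher than all blood libraries, and the LLC blood libraries were all just below those of healthy blood. The rise from LLC blood to tumor was 1.40 ± 0.22 SE on the log2 scale (adjusted p 0.000407), and that from healthy blood was 1.20 ± 0.22 SE (adjusted p 0.000923). The small difference between the blood groups did not pass (-0.20 on the log2 scale, 95% confidence interval -0.69 to 0.28, adjusted p 0.534). It was called lower in the fit of the 6 blood libraries alone (-0.21, adjusted p 0.0357) and without LLC tumor 1 (-0.26, adjusted p 0.0193).

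Fcgr4 encodes CD16-2, a receptor for IgG2a and IgG2b that is highly expressed on Ly6C-low monocytes and neutrophils. It had 449 to 1007 counts in healthy blood, 425 to 1008 in LLC blood and 844 to 1478 in the tumor. Healthy blood 1 to 3 stood at 31.1, 59.7 and 40.7 CPM, LLC blood at 38.7, 46.8 and 46.7 CPM and the tumor at 167.3, 75.0 and 89.5 CPM. The highest blood value, that of healthy blood 2, was still below the lowest tumor value. The log2 fold change was 1.32 ± 0.31 SE against LLC blood (adjusted p 0.00487) and 1.33 ± 0.31 SE against healthy blood (adjusted p 0.00425). In blood it was 0.01, with a 95% confidence interval of -0.69 to 0.71.

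Fcgr2b encodes CD32B, the only IgG receptor of the mouse with an ITIM. It was at 289.8, 280.3 and 270.1 CPM in healthy blood 1 to 3 and at 261.5, 281.5 and 301.3 CPM in LLC blood, groups that overlapped, with means of 280.1 ± 9.86 and 281.4 ± 19.9 CPM (SD, n = 3). In LLC tumor it was at 1928, 1123 and 1137 CPM, and the lowest of these lay far above the highest blood library. The log2 fold change was 2.31 ± 0.20 SE from LLC blood to tumor (adjusted p 1.13e-05) and 2.32 ± 0.20 SE when the tumor was set against healthy blood (adjusted p 9.23e-06). Between LLC blood and healthy blood it was 0.01, with a 95% confidence interval of -0.43 to 0.44. Only 9.98% of tested genes had a higher log2 fold change from LLC blood to tumor.

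Without LLC tumor 1, which was the highest library for all 4 IgG receptor genes, each of them was still called higher in tumor than in LLC blood. The log2 fold change was then 2.03 for Fcgr2b, 1.16 for Fcgr1, 1.08 for Fcgr3 and 0.92 for Fcgr4. Against healthy blood the values were 1.99, 0.95, 0.82 and 0.88 in the same order, all called.

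Reads of Fcgr2b and Fcgr3 were in part shared. The genes lie near each other on chromosome 1 and have extracellular domains of very similar sequence. Their estimated counts were not whole in any of the 9 libraries, whereas their sum came to a whole number within 0.002 counts in all 9, and the counts of the other 4 members were whole throughout. The split between the pair therefore rests on the authors' read assignment, and how many reads were shared is not known. The sum of the pair does not depend on the split. It was at 713.7 to 797.0 CPM in healthy blood, 662.0 to 742.8 CPM in LLC blood and 1956 to 3498 CPM in LLC tumor, a log2 fold change of 1.84 against LLC blood (adjusted p 6.11e-05) and 1.72 against healthy blood (adjusted p 8.09e-05). Fcgr2b made up 36.4% to 37.8% of that sum in healthy blood, 39.5% to 41.1% in LLC blood and 55.1% to 57.4% in tumor. These shares are not corrected for transcript length, so only their change between groups can be read.

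Setting each activating receptor against Fcgr2b within a library removes the scaling between libraries. The log2 ratio of Fcgr3 to Fcgr2b counts was 0.81, 0.78 and 0.72 in healthy blood 1 to 3, 0.61, 0.52 and 0.55 in LLC blood and -0.30, -0.43 and -0.36 in the tumor. No group overlapped with another, and LLC tumor 1 lay with the other tumor libraries in this measure. The mean fell by 0.92 from LLC blood to tumor, a ratio 1.90-fold lower, and by 0.21 from healthy blood to LLC blood, a ratio 1.16-fold lower.

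For Fcgr1 the log2 ratio to Fcgr2b was -0.62, -0.31 and -0.35 in healthy blood, -0.47, -0.60 and -0.69 in LLC blood and -1.28, -1.66 and -1.28 in the tumor. For Fcgr4 it was -3.22, -2.23 and -2.73 in healthy blood, -2.76, -2.59 and -2.69 in LLC blood and -3.53, -3.90 and -3.67 in tumor. Both were lower in every tumor library than in every blood library, while the blood groups overlapped. From LLC blood to tumor the ratio of Fcgr1 was 1.77-fold lower and that of Fcgr4 2.03-fold lower. The counts of Fcgr1 and Fcgr4 were whole in all 9 libraries, while those of Fcgr2b were whole in none. These ratios therefore also rest on the uncertain split between Fcgr2b and Fcgr3.

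In the exact permutation test (two-sided, 3 libraries against 3), all 3 ratios gave p = 0.1 in both tumor comparisons, as did the Fcgr3 ratio in blood. This is the smallest p that the design allows, so no ratio could pass 0.05, and adjusted over the 9 ratio tests it was 0.129. In blood the exact permutation p was 0.3 for the Fcgr1 ratio and 0.8 for the Fcgr4 ratio. The differences against LLC blood, 0.82 to 1.02 in size on the log2 scale, were larger than the SD within these groups, which was 0.05 to 0.22.

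**Figure D2:**
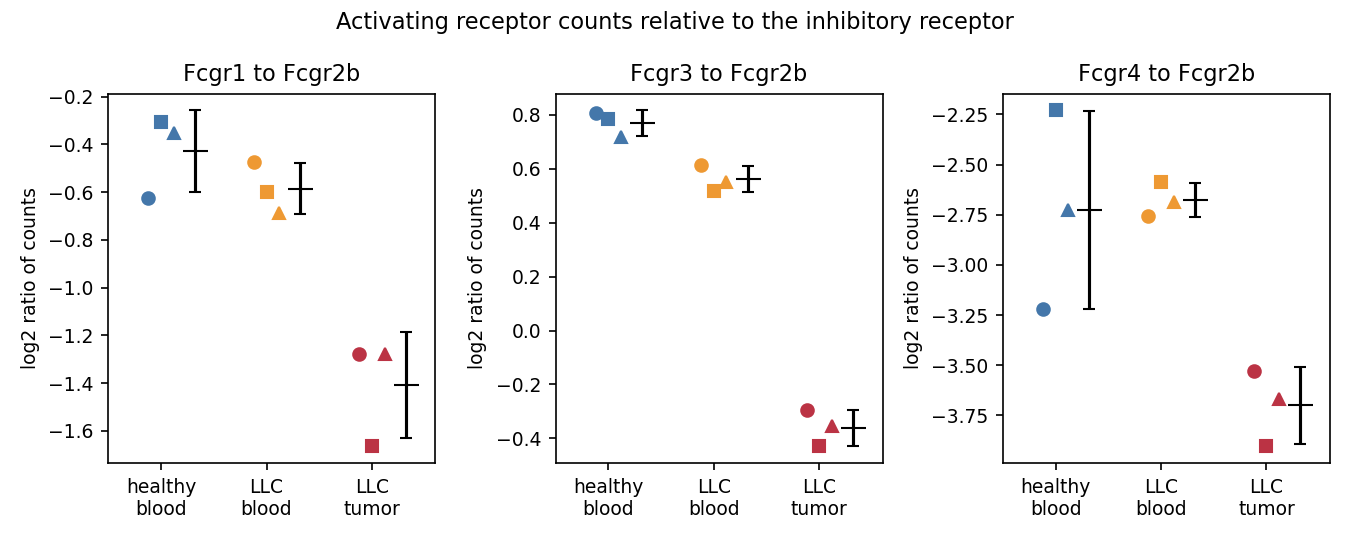
Log2 ratio of the counts of Fcgr1, Fcgr3 and Fcgr4 to those of Fcgr2b (vertical axes) in each library, with symbols for replicates 1 to 3 and the mean and SD of each group. In all 3 panels the tumor libraries lie below all blood libraries, at -1.28 or less for Fcgr1, -0.30 or less for Fcgr3 and -3.53 or less for Fcgr4.

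Because the 4 IgG receptor genes rose together in tumor, their promoters are shown: the 120 bases before the annotated start in RefSeq (build GRCm38.p6), on the strand of the gene, 5′ to 3′. Capitals mark matches to the PU.1 core GAGGAA on either strand and to the STAT palindrome TTCNNNGAA. PU.1 is the lineage factor of myeloid cells, and the palindrome is a site through which interferon-gamma is known to act. The motifs were chosen after these promoters had been seen.
Fcgr1: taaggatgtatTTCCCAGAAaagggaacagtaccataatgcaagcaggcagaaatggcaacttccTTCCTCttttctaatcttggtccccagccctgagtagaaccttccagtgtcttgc
Fcgr3: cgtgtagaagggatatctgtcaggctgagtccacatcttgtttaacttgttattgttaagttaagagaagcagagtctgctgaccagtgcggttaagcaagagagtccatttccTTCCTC
Fcgr4: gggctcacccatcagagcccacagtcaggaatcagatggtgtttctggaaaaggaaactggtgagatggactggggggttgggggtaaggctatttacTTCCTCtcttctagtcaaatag
Fcgr2b: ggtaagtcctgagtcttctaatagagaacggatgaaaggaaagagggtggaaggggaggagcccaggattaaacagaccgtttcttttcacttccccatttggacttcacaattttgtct

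These windows are chr3:96293970-96294089 (Fcgr1, minus strand), chr1:171059404-171059523 (Fcgr3, minus strand), chr1:171018806-171018925 (Fcgr4, plus strand) and chr1:170976072-170976191 (Fcgr2b, minus strand). In the 250 bases before the start, the core GAGGAA, read on the opposite strand as TTCCTC, was found in the promoters of the 3 activating receptors, beginning 55 bases before the start of Fcgr1, 6 before that of Fcgr3 and 22 before that of Fcgr4. It was not found in the windows of Fcgr2b, Fcer1g and Fcgrt. Of all 32851 promoters of this length, 23.3% held it. The palindrome TTCNNNGAA was found in Fcgr1 alone among the 6 members, beginning 109 bases before the start, and in 7.02% of all promoters. The C/EBP letters TTGCNNAA were found 28 bases before the start of Fcgr3 and 239 before that of Fcgrt, and in 9.56% of all promoters. AP-1 (TGANTCA) and hypoxia response (ACGTG) letters were found in none of the 6 windows, against 6.75% and 16.6% of all promoters. Both strands were searched, and the marked matches do not overlap. RefSeq lists another start for Fcgr3, in whose window the core begins 15 bases before the start, and the window shown lies within the annotated span of that gene. A match is only a description of letters.

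On chromosome 1, the genes Fcgr2b (170960558 to 170976071), Fcgr4 (171018926 to 171029761) and Fcgr3 (171051169 to 171065915) lie within 105.4 kb, and Fcer1g (171229572 to 171234349) lies further along. Fcgr1 is on chromosome 3 (96282909 to 96293969) and Fcgrt on chromosome 7 (45092993 to 45103822).

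The signalling chain did not follow the receptors. Fcer1g had 13269 to 16100 counts in healthy blood, 7807 to 13979 in LLC blood and 6682 to 10128 in the tumor. In normalized CPM, healthy blood 1 to 3 stood at 918.3, 911.0 and 955.8, LLC blood at 710.2, 623.7 and 648.0 and the tumor at 1146, 593.4 and 678.6. All LLC blood libraries lay below all healthy blood libraries, and LLC tumor 1 lay above both blood groups while the other tumor libraries lay below healthy blood.

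The log2 fold change of Fcer1g between LLC blood and healthy blood was -0.49 ± 0.21 SE, not called in the fit of all libraries (adjusted p 0.127). It was called lower with the 6 blood libraries alone (-0.50, adjusted p 0.000552) and without LLC tumor 1 (-0.54, adjusted p 0.000759). Against LLC blood the tumor value was 0.29, with a 95% confidence interval of -0.19 to 0.76 (adjusted p 0.265), and without LLC tumor 1 it was -0.03. Against healthy blood it was -0.20 (adjusted p 0.417), and without LLC tumor 1 it was -0.57 and was called (adjusted p 0.000255). Tyrobp, which encodes DAP12, the other ITAM chain of myeloid cells, had log2 fold changes of -0.51 in blood (adjusted p 0.0982), -0.29 in tumor against LLC blood (adjusted p 0.235) and -0.81 in tumor against healthy blood (adjusted p 0.0063).

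Fcgrt was lower in both groups of tumor-bearing mice. It had 1147 to 1181 counts in healthy blood, 436 to 713 in LLC blood and 225 to 432 in the tumor. The levels were 79.4, 68.4 and 70.1 CPM in healthy blood, 40.0, 28.3 and 33.1 CPM in LLC blood and 25.5, 36.0 and 38.6 CPM in tumor. All 6 libraries of tumor-bearing mice were below all 3 of healthy mice, and LLC blood and LLC tumor overlapped.

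From healthy blood to LLC blood Fcgrt was 2.15-fold lower (log2 fold change -1.11 ± 0.17 SE, adjusted p 0.00207), and in the tumor 2.17-fold lower (-1.12 ± 0.17 SE, adjusted p 0.000305), comparisons that share the healthy blood libraries. Only 5.03% of tested genes had a lower log2 fold change in blood. Between LLC blood and tumor the difference was -0.01, with a 95% confidence interval of -0.39 to 0.37. B2m, the light chain that FcRn and MHC class I share, was at 3569 ± 327 CPM in healthy blood, 2092 ± 130 CPM in LLC blood and 2034 ± 834 CPM in LLC tumor (SD, n = 3). Its log2 fold change was -0.77 in blood (adjusted p 0.0478), -0.04 in tumor against LLC blood (adjusted p 0.896) and -0.81 in tumor against healthy blood (adjusted p 0.015).

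In tumor against healthy blood, 4 of the 6 members were thus higher and 1 was lower, where 33.5% of all tested genes were called higher, 33% lower and 66.5% in either direction. The tumor libraries lay wholly above healthy blood for 4 members and wholly below for 1 (34.4% and 35.3% of all tested genes, 69.8% in all). They lay wholly above LLC blood for 4 members and wholly below for 0 (31.4% and 34.5%, 65.9% in all). The LLC blood libraries lay wholly below healthy blood for 3 members, Fcgr3, Fcer1g and Fcgrt, and wholly above for 0 (26.1% and 25.7%, 51.8% in all).

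**Figure D3:**
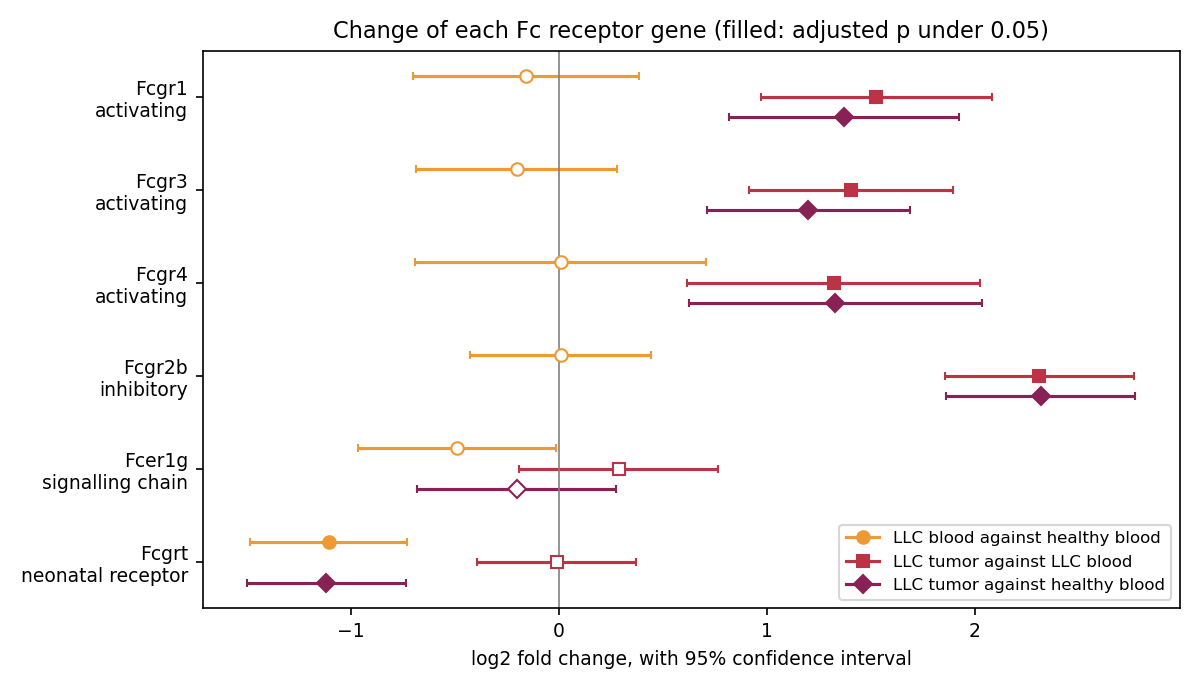
Log2 fold change (horizontal axis) of each gene in the 3 comparisons, with 95% confidence intervals from edgeR; filled symbols have an adjusted p under 0.05. Fcgr2b lies furthest to the right in both tumor comparisons, at 2.31 and 2.32, and Fcgrt lies at -1.11 and -1.12 in the comparisons with healthy blood.

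Other cell types that could be in a sort carry Fc receptors too, so their markers were read beside these results. For Fcgr2b, which B cells express, the 10 B cell markers summed to 5.32 to 7.90 CPM in LLC tumor, where Cd79a, Ms4a1, Blk and Fcer2a were at 0 in all 3 libraries. They summed to 15.0 to 19.4 CPM in LLC blood and 21.7 to 206.2 CPM in healthy blood, the highest value being that of healthy blood 2. For Fcgr3, which NK cells express, the 10 NK cell markers summed to 7.82 to 21.6 CPM in tumor, 36.6 to 55.7 CPM in LLC blood and 215.1 to 476.9 CPM in healthy blood, and 8 of 10 were called lower in tumor than in LLC blood. For Fcgr4, the 10 Ly6C-low monocyte markers summed to 1295 to 1934 CPM in tumor against 3273 to 4000 CPM in LLC blood, with 7 of 10 called lower and 2 higher, and the 12 neutrophil markers summed to 441.1 to 659.6 CPM against 784.5 to 1258 CPM, with 5 called lower and 1 higher. Over all tested genes, 31.7% were called lower and 29.6% higher in tumor against LLC blood. Csf3r and Mmp8 were the highest of the neutrophil markers in every library, while Mmp9 was at 0.603 to 3.18 CPM in LLC blood and 42.6 to 88.5 CPM in the tumor.

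In the tumor, macrophage markers moved the same way as the IgG receptors. The 11 markers summed to 2295 to 4125 CPM in LLC tumor, 1082 to 1142 CPM in LLC blood and 1664 to 1969 CPM in healthy blood, with none at 0 in a whole group. In blood most of that sum was Apoe, Cd68 and Adgre1, and single markers moved unlike the sum. From LLC blood to tumor, C1qa went from 1.30 to 1.91 CPM to 141.1 to 245.6 CPM. Mrc1 went from 5.89 to 8.01 CPM to 291.6 to 497.3 CPM, and Adgre1 from 290.7 to 323.5 CPM to 169.5 to 266.3 CPM. Against LLC blood, 9 of the 11 markers were called higher and 1 lower in tumor, where 29.6% of all tested genes were called higher and 31.7% lower. In LLC blood against healthy blood, 1 was called higher and 5 lower (14% and 9.61% of all tested genes), while no IgG receptor gene was called in that fit. LLC tumor 1 had the highest sum, as it had the highest receptor levels. Markers of LLC cells and stroma summed to 1022 to 3550 CPM in tumor and were lowest there in LLC tumor 1. Most of that sum was the collagen gene Col3a1, at 894.0, 2806 and 3206 CPM in LLC tumor 1 to 3. The epithelial genes were low there, with Krt8 at 7.92 to 14.2 CPM, Krt18 at 4.98 to 34.9 CPM and Epcam at 0.179 CPM at most. The same list summed to 397 CPM in LLC blood 1 against 16.2 and 17.1 CPM in the other LLC blood libraries. Mast cell and basophil markers summed to 33.0 to 39.0 CPM in tumor, of which Hdc alone was 27.3 to 35.5 CPM, and to at most 9.31 CPM in any blood library. The part of these cells in the receptor results was not tested.

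Downstream of the receptors, most genes of the ITAM side did not rise with them. Of 19 such kinases, adaptors and effectors, all tested, 4 were called higher and 11 lower in tumor against LLC blood, with a median log2 fold change of -0.39 against -0.03 over all genes, of which 29.6% were called higher and 31.7% lower. Without LLC tumor 1, 4 were higher and 14 lower. The calls over all genes in this comparison also moved, from 3652 higher and 3914 lower in the full fit. In fits without 1 library they were 3407 to 4416 higher and 3473 to 4220 lower. The p110-delta catalytic subunit Pik3cd fell from 702.6 to 273.0 CPM (log2 fold change -1.36, adjusted p 4.29e-06), and the phospholipase Plcg2 fell from 584.9 to 250.8 CPM (-1.22, adjusted p 8.0e-06). The Src-family kinase Fgr fell as well (-1.02, adjusted p 6.34e-05). Syk itself was at 663.1 ± 44.1 CPM in LLC blood and 530.7 ± 104.2 CPM in tumor (SD, n = 3; log2 fold change -0.32, adjusted p 0.0802). The 4 that rose were the docking adaptor Gab2 (0.95), the exchange factor Vav3 (0.50), the adaptor Lat2 (0.59) and the kinase Src (5.77, from 0.398 to 22.1 CPM), named after their values were seen.

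On the inhibitory side, 3 of 13 phosphatases and adaptors were higher and 8 lower in tumor against LLC blood, with a median of -0.46, where 29.6% of all tested genes were called higher and 31.7% lower. Without LLC tumor 1, 4 were higher and 9 lower, while in fits without 1 library 3407 to 4416 of all genes were higher and 3473 to 4220 lower. Inpp5d, which encodes the SHIP-1 that Fcgr2b recruits, was at 303.1 ± 8.58 CPM in healthy blood, 366.3 ± 9.39 CPM in LLC blood and 341.2 ± 60.6 CPM in the tumor (SD, n = 3). It was not called in any comparison, with log2 fold changes of 0.27 in blood (adjusted p 0.12) and -0.10 in tumor against LLC blood (adjusted p 0.463). Ptpn6, which encodes the protein phosphatase SHP-1, was at 786.6 ± 17.9 CPM in LLC blood and fell to 323.6 ± 44.9 CPM in the tumor (SD, n = 3, log2 fold change -1.28, adjusted p 9.62e-06). Dok2, an adaptor that dampens Ras signalling, rose most in that list, from 10.1 to 12.7 CPM in LLC blood to 173.4 to 253.0 CPM in tumor (4.09, adjusted p 4.08e-07), while its relative Dok3 fell from 253.5 to 127.1 CPM (adjusted p 1.57e-05).

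In blood, the inhibitory list of 13 had 3 members higher and 2 lower and the ITAM-side list of 19 had 2 higher and 2 lower, where 14% of all tested genes were called higher and 9.61% lower. The ubiquitin ligase Cbl, which targets activated kinases, was at 29.2 to 37.8 CPM in healthy blood, 248.0 to 302.7 CPM in LLC blood and 172.4 to 179.6 CPM in tumor, a log2 fold change in blood of 3.07 (adjusted p 6.28e-06). Among the ITAM-side genes, Pik3cg (0.39, adjusted p 0.00836) and Card9 (0.27, adjusted p 0.0156) were higher, and Prkcd was lower (-0.34, adjusted p 0.0467). The T cell adaptor Lat, named after its values were seen, was lower as well (-4.53), beside T cell markers that were at 32.7 to 148.2 CPM summed over the list in healthy libraries, against 3.31 to 5.19 CPM in those of LLC blood, a relation that was not tested. Without LLC tumor 1 the inhibitory list had 5 higher and 5 lower in blood and the ITAM-side list 4 and 6. Over all genes, the calls in blood then went from 1732 to 2181 higher and from 1185 to 2883 lower.

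A list drawn up as other myeloid receptors with an ITIM changed in both directions. Some of its genes, Lilr4b and Cd200r1 among them, do not encode an ITIM, so the counts describe the list as a whole. Of 17 tested in tumor against LLC blood, 9 were called higher and 6 lower, with a median of 0.70, against 29.6% and 31.7% of all tested genes. When LLC tumor 1 was left out, 9 were higher and 7 lower. In fits without 1 library, 3407 to 4416 of all genes were called higher in this comparison and 3473 to 4220 lower. Lilr4b rose most among those named by the rule, from 91.3 to 1102 CPM (3.59, adjusted p 1.35e-07). Its near-identical neighbour Lilrb4a, which does encode an ITIM, rose from 408.2 to 1494 CPM (1.87, adjusted p 1.22e-06; value given after it was seen). The counts of both were partly shared and the split is uncertain. Pecam1, which encodes the adhesion receptor CD31, rose by 2.27 on the log2 scale (adjusted p 2.82e-05), while Cd300a fell by 1.96 (adjusted p 6.94e-07) and Clec12a by 2.03 (adjusted p 2.89e-05). In blood, 4 were higher and 2 lower, against 14% and 9.61% of all tested genes, among them Cd300lf (1.21, adjusted p 0.00144) and Clec12a, which went from 377.8 to 188.8 CPM (adjusted p 0.00658). The blood counts were 6 higher and 5 lower without LLC tumor 1. Over all genes, the calls in blood then went from 1732 to 2181 higher and from 1185 to 2883 lower.

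Among receptors that use the Fcer1g chain as partner, 5 of 13 tested were called higher and 3 lower in tumor against LLC blood, where 29.6% of all tested genes were higher and 31.7% lower, and 5 and 4 without LLC tumor 1. In fits without 1 library, 3407 to 4416 of all genes were called higher in this comparison and 3473 to 4220 lower. The list's median of 0.00 lay close to the -0.03 of all genes. The C-type lectins Clec4d (5.30, adjusted p 5.85e-07), Clec4n (5.26, adjusted p 5.91e-07) and Clec4e (2.78, adjusted p 1.22e-05) rose; they encode receptors for microbial and damage-associated glycolipids and mannans. In blood, 3 of the 13 were higher and 2 lower, where 14% of all tested genes were called higher and 9.61% lower. Without LLC tumor 1, 5 were higher and 5 lower, while over all genes the calls went from 1732 to 2181 higher and from 1185 to 2883 lower. Pira1 and Pira7, paralogs of the activating paired immunoglobulin-like receptor A family, were listed in opposite groups. Pira1 was at 57.7, 60.2 and 75.2 CPM in healthy blood 1 to 3 and at 0 in all 6 libraries of tumor-bearing mice. Pira7 was at 0 in the healthy libraries, at 48.8 to 57.8 CPM in LLC blood and at 35.2 to 56.3 CPM in the tumor. Their estimated counts were not whole, so reads were shared with other entries, and the split between these near-identical genes is uncertain. Pira7 was among the 3 called higher in blood. The 2 called lower were Pira1 and the NK cell marker Ncr1, named after its values were seen. Cd300ld was at 70.8 to 80.1 CPM in healthy libraries and higher in LLC blood, at 101.1 to 119.8 CPM (log2 fold change 0.56, adjusted p 0.0183).

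Of 14 other Fc receptors and immunoglobulin binders, 6 were expressed enough to be tested. Fcrlb, an intracellular Fc receptor-like gene that lies 46.7 kb from Fcgr2b on chromosome 1, had 8, 8 and 6 counts in healthy blood, 6, 2 and 5 for LLC blood and 730, 807 and 681 in the tumor (log2 fold change against LLC blood 7.99 ± 0.27 SE, adjusted p 1.2e-07). Fcrls rose too, from 0.956 to 44.6 CPM (5.53, adjusted p 5.77e-06), as did Lgals3, which encodes galectin-3 (1.09, adjusted p 0.00257). Trim21, the cytosolic antibody receptor, fell (-1.49, adjusted p 2.06e-05), as did Fcrl1 (-2.02, adjusted p 6.48e-05; named after its values were seen). In that comparison 3 were thus higher and 2 lower, with and without LLC tumor 1, against 29.6% and 31.7% of all tested genes. In blood, 0 of the 6 were called in the edgeR fit of all libraries, where 14% of all tested genes were called higher and 9.61% lower. Without LLC tumor 1, 2 were called lower, while the genes called lower over all went from 1185 to 2883. Fcer1a, the chain of the high-affinity IgE receptor that binds IgE, was at 0 in 8 of 9 libraries and at 4 counts in LLC tumor 2.

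Signals known to set Fc receptor levels were read from a list of 15 receptors and factors. In tumor against LLC blood, 3 were higher and 8 lower, with a median of -0.41, where 29.6% of all tested genes were called higher and 31.7% lower. Without LLC tumor 1, 4 were higher and 11 lower, while in fits without 1 library 3407 to 4416 of all genes were higher and 3473 to 4220 lower. C5ar1, which encodes the receptor for complement C5a, a ligand known to raise activating over inhibitory Fc receptors, was at 28.1 ± 3.97 CPM in LLC blood and rose to 339.1 ± 113.1 CPM in the tumor (SD, n = 3, log2 fold change 3.59, adjusted p 2.38e-06). Il4ra, the receptor chain for interleukin-4, which is known to raise Fcgr2b, rose both in blood (1.13, adjusted p 0.000707) and from LLC blood to tumor (1.25, adjusted p 4.54e-05). The log2 fold changes of Fcgr2b itself were 0.01 in blood and 2.31 from LLC blood to tumor. Irf1, an interferon-induced factor, fell in tumor against healthy blood (-1.52, adjusted p 0.00065). Whether any of these signals had a part in the receptor levels was not tested.

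**Figure D4:**
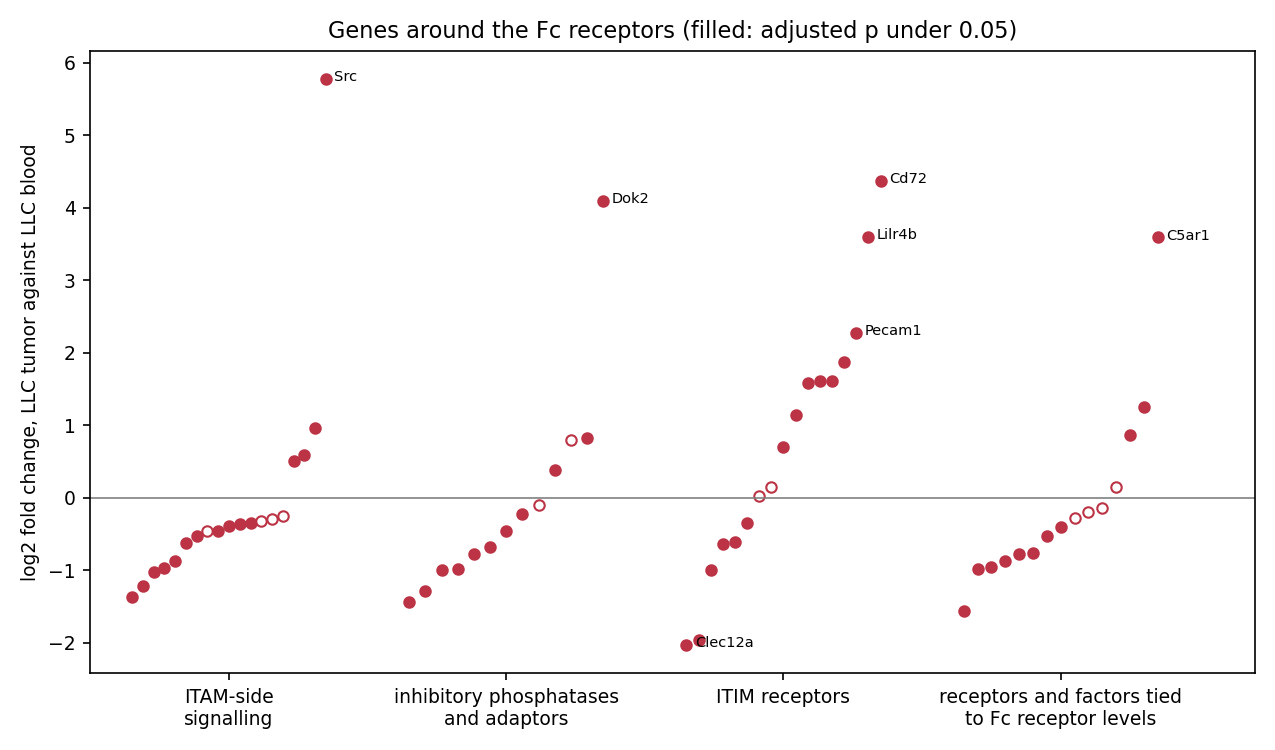
Log2 fold change of LLC tumor against LLC blood (vertical axis) for the tested genes of 4 lists, ordered by value within each list; filled points have an adjusted p under 0.05, and genes beyond 2 in either direction are named. Most ITAM-side genes lie below 0, with Src at 5.77 as the exception furthest from them, and Dok2 lies at 4.09 in the inhibitory list.

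The genes whose log2 levels over the 9 libraries were most like each member's were taken from the 6912 tested genes that averaged 20 CPM or more. For Fcgr2b they were the lysosomal protease Lgmn (Pearson r 0.999), Gm6377 (0.998) and the mitochondrial channel Vdac1 (0.998). Lgmn averaged 160.0 CPM in healthy blood, 169.1 CPM in LLC blood and 1130 CPM in the tumor. For Fcgr1 they were Efhd2 (0.992), Ist1 (0.992) and Sra1 (0.991), for Fcgr3 they included Rab5c (0.995) and Tob1 (0.994), and for Fcgr4 they were Lpxn (0.979), Tax1bp1 (0.978) and Acp5 (0.978). For Fcer1g they were Sap30 (0.988), the lysosomal cholesterol carrier Npc2 (0.986) and Sat1 (0.978), and for Fcgrt Ldb1 (0.958), Ctu2 (0.955) and Ppp1r37 (0.954). These correlations are descriptions over libraries that share 3 groups and their scaling.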

How the data were processed

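Per gene symbol, the table deposited by the authors gives estimated counts (expected counts, not normalized), of which 8.56% to 9.73% of values per library were not whole. Trim Galore, cutadapt 3.4, STAR 2.6.1d, Salmon 1.9.0, edgeR and the build mm10 are named in the submitters' processing notes, without their roles. The column heads carry BM, read as blood monocyte from the sample descriptions, which the table does not settle. The other 22 of 31 samples were not analysed here.

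Counts were rounded and fitted with edgeR 4.0.16 (R 4.3.3; quasi-likelihood, group as the only term, TMM, filterByExpr) on all 9 libraries, with p-values adjusted over 12337 genes. Standard errors are the log2 fold change over the root of the F statistic. Ratios used 0.5 added counts. Fits were also run on simulated data with 200 genes changed in LLC blood alone. That setting had far fewer changed genes than were called here and no outlying library, so it cannot vouch for the tumor comparisons. Levels have no transcript length, so genes were not compared with each other by level. Members and lists were chosen with earlier results of these data known. From each list, the called genes of largest change that averaged 20 CPM or more, at most 4, were named per comparison, and always Inpp5d, Ptpn6, Syk, Tyrobp and B2m. A few genes that this rule or the lists name are not reported here. Alternatives were library totals, upper-quartile factors, DESeq2 1.42.0, limma-voom 3.58.1 with quality weights, no filter, fewer libraries, the replicate number as a block, and other pseudocounts.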

Additional observations from a re-analysis of the deposited data

How the results depend on the processing

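In the tumor comparisons, Fcgr1, Fcgr2b, Fcgr3 and Fcgr4 were called higher under every alternative run, and Fcgrt was called lower against healthy blood in both groups. The number of members called in blood, 1, became 2 with library totals only, with limma-voom and with the replicate block in 6 libraries, and 3 with the 6 libraries alone. In the fits without 1 library it was 1 to 3, being 3 without LLC tumor 1. The members lower in tumor against healthy blood became 2 with library totals or limma-voom, and were 1 to 2 without 1 library, being 2 without LLC tumor 1.

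The count of genes called in blood, 2917, became 5884 with limma-voom (3003 higher, 2881 lower), 4889 with the 6 libraries alone (2411 lower) and 4820 with the replicate block in them (2386 lower). Without 1 library it was 1494 to 5064 (1019 to 2181 higher, 467 to 2883 lower). It moved by over 1.5 times without healthy blood 2 or 3, LLC blood 2 or 3, or LLC tumor 1, and its lower part also without healthy blood 1. The share higher was 59.4% in blood and 46.3% with upper-quartile factors. In tumor against LLC blood it was 48.3%, and 36.3% with library totals, which moved the median of all genes to -0.23. The causes were not tested. Of the list genes named by the rule, 18 of 18 in blood, 24 of 24 in tumor against LLC blood and 26 of 26 in tumor against healthy blood kept their call without LLC tumor 1.

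Values near 0 changed sign without being called. In blood Fcgr4 was -0.045 with upper-quartile factors, -0.0063 with DESeq2, -0.012 with limma-voom and -0.00071 with 6 libraries, and -0.19 to 0.24 without 1 library. Fcgr2b was -0.045 with upper-quartile factors, -0.0071 with DESeq2, -0.0011 with 6 libraries and, with the replicate block in 6 libraries, -0.0022, while the pair summed gave -0.12, and without 1 library it was -0.048 to 0.069. In tumor against LLC blood Fcgrt was 0.047 with DESeq2, 0.24 with limma-voom, 0.019 with 6 libraries and 0.019 with the replicate block in them, and -0.16 to 0.17 without 1 library. Fcer1g was -0.030 to 0.47 without 1 library, lowest without LLC tumor 1. The log2 ratio of Fcgr4 to Fcgr2b in blood was -0.20 to 0.30, reversed without healthy blood 1.

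Whether same-numbered libraries share mice or a batch is not stated in the sources used here. Their deviations correlated at -0.12 to 0.30 (0.06 to 0.30 in blood), not above 0.1 in every pair, so the numbers were not used as pairs. With the replicate block in 9 libraries, 2788 genes were called in blood, 7455 in tumor against LLC blood and 8092 in tumor against healthy blood, and 1, 4 and 5 members. The paired sign-flip test of the ratios cannot go below 0.25.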

Other observations

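Receptors for IgE and IgM of lymphocytes were concentrated in a single library. Fcer2a, which encodes CD23, had 267 counts in healthy blood 2 against 4 in healthy blood 1, 14 in healthy blood 3 and at most 3 in any library of tumor-bearing mice. Fcmr, the IgM receptor, had 296 counts there against 5 and 12, and Fcrla had 156 against 2 and 9. The B cell markers of healthy blood 2 summed to 206.2 CPM, while its Fcgr2b level of 280.3 CPM lay between those of the other healthy blood libraries.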
